A study of Mus musculus with 9 samples.

Results

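The 10 genes followed here mark the granules and receptors of eosinophils, basophils and mast cells: Prg2, Prg3, Epx, Il5ra, Fcer1a, Ms4a2, Cpa3, Mcpt8, Prss34 and Hdc. Every probe set of the array whose single annotated gene symbol was one of these was taken, which gave 11 of the 45101 probe sets and 9 of the 18193 genes measured, with 2 probe sets each for Ms4a2 and Hdc. The level of Prss34 was not analysed here, only the sequence upstream of it. The genes were read across 3 groups of 3 arrays, each from bone marrow cells of 6-week-old mice. LSK cells, which are lineage-negative, cKit+ and Sca1+ and include the hematopoietic stem cells, were sorted from wild-type (WT) animals. Committed myeloid precursors, the granulocyte-monocyte progenitors (GMP), were sorted from WT animals and from NcstnKO mice, which lack nicastrin, the γ-secretase subunit. WT mice were Ncstn flox/flox and NcstnKO mice were Ncstn flox/flox Mx1-cre+ littermates. The Mx1 promoter is switched on by interferon in many cell types, including the bone marrow. All mice, WT included, had 3 injections of polyIC, an inducer of interferon, at 20 µg per g of body weight from 14 days of age, and were studied 4 weeks later. Only the NcstnKO mice carried Cre, so its effect and that of losing nicastrin cannot be told apart. The labels do not say how many mice gave the RNA of an array, so p-values measure the spread between these arrays.

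Eosinophils, basophils and mast cells arise from myeloid progenitors and store their effector proteins in granules. Prg2 encodes major basic protein, Prg3 its homologue and Epx eosinophil peroxidase, all cytotoxic proteins of the eosinophil granule, and Il5ra encodes the α chain of the receptor for interleukin-5, the main growth factor of eosinophils. Fcer1a and Ms4a2 encode the α and β chains of FcεRI, through which IgE arms basophils and mast cells. Cpa3 (carboxypeptidase A3) is a protease of mast cells and basophils, Mcpt8 is a serine protease of mouse basophils, and Hdc encodes histidine decarboxylase, which makes histamine. In mouse bone marrow, the cells sorted as GMP are known to be a mixture that includes precursors of these lineages. On bulk arrays, fewer cells of a type and less RNA per cell cannot be told apart.

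Levels are given as log2 of the deposited intensity, which is not comparable between genes because each probe set binds its target with its own strength. A gene with several probe sets is counted by the one with the highest mean over the 9 arrays. Array medians lay at 98.3 to 103 (intensity) in LSK and 65.4 to 68.6 in GMP, so values were also compared after 2 rescalings, by quantiles and by centring each array at its 75th percentile. Arrays of 1 group correlated across genes, at 1 probe set per gene, at 0.990 to 0.996, and arrays of different groups at 0.954 to 0.991. Of the GMP markers, 8 of 8 measured, 6 were higher and 2 lower in WT GMP than in LSK, and of the LSK markers, 7 of 8 measured, 7 were lower. Ncstn read 7.78 in NcstnKO GMP and 9.27 in WT GMP, 2.82-fold lower (SE 0.0796, limma adjusted p = 0.00132). Xist and Y-linked transcripts went against the labelled sex in 4 GMP arrays: WT GMP 2 and 3, female by label, had transcripts of males, and NcstnKO GMP 2 and 3, male by label, had those of females. The tests of the 9 genes, of the further lists and of the marker lists between genotypes were also fitted with sex as a term, but sums, ratios and correlations were not. By transcripts all NcstnKO GMP arrays were female and only WT GMP 1 was female among WT GMP. By label all WT GMP arrays were female and only NcstnKO GMP 1 was female among NcstnKO GMP. Sex and genotype are thus largely confounded in GMP, and a sex term cannot fully separate them.

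**Figure D1:**
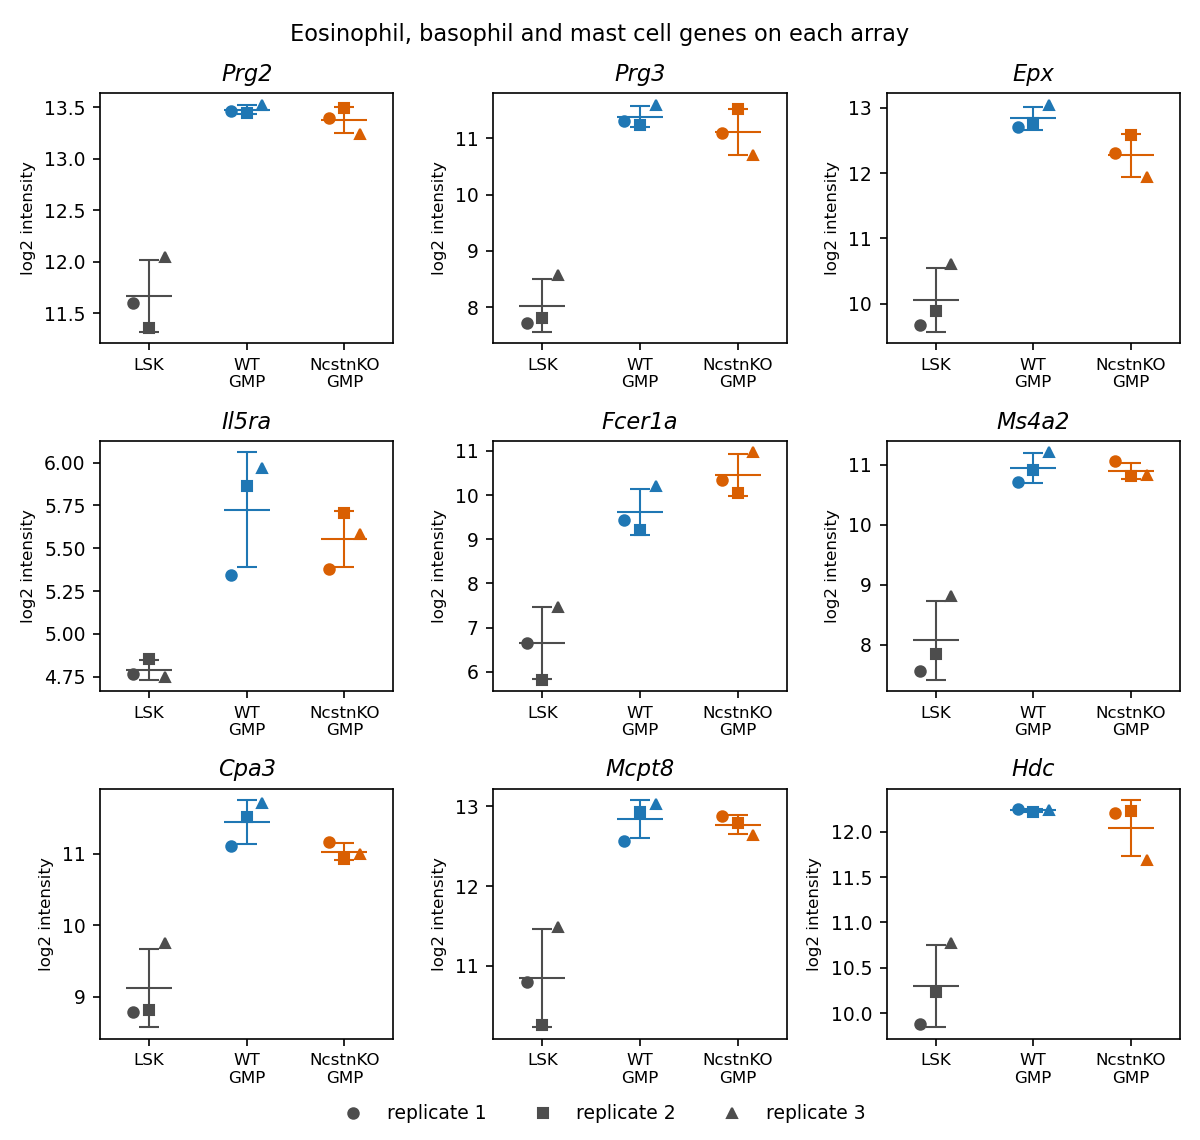
Level of each of the 9 measured genes on each array. The vertical axis is log2 intensity on a scale of its own for each gene, the symbols are the 3 replicates of LSK, WT GMP and NcstnKO GMP, and the lines are the group mean and SD. For all 9 genes, every GMP array of either genotype lies above every LSK array, while the symbols of WT and NcstnKO GMP overlap for all genes but Epx.

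The comparison of WT GMP with LSK asks what separates committed myeloid progenitors from the stem cell fraction. Transcripts of the eosinophil granule were above background in LSK and higher in GMP. Prg2, major basic protein, read 11.60, 11.36 and 12.05 in the 3 LSK arrays, 13.46, 13.44 and 13.52 in WT GMP, and 13.40, 13.49 and 13.24 in NcstnKO GMP. Its lowest GMP array stood above its highest LSK array. The rise from LSK to WT GMP was 1.80 on the log2 scale, or 3.49-fold (SE 0.165, limma adjusted p = 0.000161). Prg3, the homologue of major basic protein, had the largest difference of the 9 genes in WT GMP. It read 7.71, 7.80 and 8.57 in LSK, 11.31, 11.25 and 11.60 in WT GMP, and 11.10, 11.52 and 10.71 in NcstnKO GMP. WT GMP exceeded LSK by 3.36 (log2), or 10.3-fold (SE 0.266, limma adjusted p = 9.04e-05), and the closest arrays of the groups were 2.68 apart. Epx, eosinophil peroxidase, separated the groups in the same way. It read 9.68, 9.88 and 10.61 in LSK, 12.71, 12.76 and 13.05 in WT GMP, and 12.31, 12.59 and 11.94 in NcstnKO GMP. It was higher in WT GMP than in LSK by 2.78 (log2), or 6.89-fold (SE 0.255, limma adjusted p = 0.000165).

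Il5ra, the interleukin-5 receptor chain, was the dimmest of the 9 and rose least. Its LSK values of 4.77, 4.86 and 4.75 lay just above the background limit of those arrays, which was 4.38, 4.46 and 4.37 (the 95th percentile of 27 control probe sets for bacterial genes that were not spiked in). It read 5.34, 5.86 and 5.97 in WT GMP and 5.38, 5.71 and 5.58 in NcstnKO GMP, and no GMP array fell to the LSK range. The difference between WT GMP and LSK was 0.94 (log2), or 1.91-fold (SE 0.165, limma adjusted p = 0.00334). So close to background, a fold of intensity understates a fold of RNA.

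The α and β chains of FcεRI rose, while the γ chain, Fcer1g, was not called (difference 0.33 on the log2 scale). Fcer1a, the IgE-binding α chain, read 6.66, 5.82 and 7.47 in LSK, 9.45, 9.22 and 10.22 in WT GMP, and 10.35, 10.05 and 10.97 in NcstnKO GMP. It had the widest spread between LSK arrays of the 9 genes, with an SD of 0.823. The rise to WT GMP was 2.98 (log2), or 7.87-fold (SE 0.433, limma adjusted p = 0.00135). Ms4a2, the β chain, read 7.57, 7.84 and 8.81 in LSK, 10.72, 10.91 and 11.20 in WT GMP, and 11.05, 10.81 and 10.83 in NcstnKO GMP. The difference between WT GMP and LSK was 2.87 (log2), or 7.31-fold (SE 0.290, limma adjusted p = 0.000253). A dimmer Ms4a2 probe set gave 3.32 (log2) for the same comparison (limma adjusted p = 0.000435), the same direction.

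The granule proteases and the histamine enzyme rose by similar amounts. Cpa3 read 8.79, 8.81 and 9.75 in LSK, 11.11, 11.52 and 11.71 in WT GMP, and 11.16, 10.93 and 10.99 in NcstnKO GMP. WT GMP exceeded LSK by 2.33 (log2), or 5.03-fold (SE 0.262, limma adjusted p = 0.000406). Mcpt8, the basophil protease, was bright even in LSK. It read 10.80, 10.26 and 11.49 in LSK, 12.57, 12.92 and 13.02 in WT GMP, and 12.87, 12.79 and 12.64 in NcstnKO GMP, a difference of WT GMP from LSK of 1.99 (log2), or 3.97-fold (SE 0.274, limma adjusted p = 0.00105). Hdc, histidine decarboxylase, hardly varied between WT GMP arrays. It read 9.88, 10.23 and 10.78 in LSK, 12.25, 12.22 and 12.24 in WT GMP, and 12.21, 12.23 and 11.68 in NcstnKO GMP. WT GMP exceeded LSK by 1.94 (log2), or 3.84-fold (SE 0.227, limma adjusted p = 0.000491). The dimmer Hdc probe set was called in the same direction (limma adjusted p = 0.000504).

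All 9 measured genes therefore passed the test as higher in WT GMP than in LSK, in which 6.92% of the 18193 genes were called higher and 29.2% lower, and in all 9 the groups did not overlap, which held for 13.2% of genes in that direction. The median difference of the 9 was 2.33 (log2), beside −0.18 over all genes. Rescaling moved the median of all genes to 0.05 (quantile) or 0.17 (75th percentile), and that of the 9 to 2.65 or 2.68, with all 9 still called. The split of all probe sets called was 2722 higher and 12988 lower as deposited, 7912 and 5798 after quantile normalization, and 12180 and 5830 after centring on the 75th percentile. Ordered by the difference, Prg3 ranked 4 of 18193 genes, Fcer1a 8, Ms4a2 10, Epx 11, Cpa3 23, Mcpt8 42, Hdc 49, Prg2 65 and Il5ra 295. Neighbours in this order from Prg3 to Epx, and from Mcpt8 to Prg2, had differences within 1 standard error of each other (the larger of the pair), so the first place of Prg3 over Fcer1a is not resolved. The genes were chosen with earlier results of these data known. Counts and ranks against LSK, for GMP of either genotype, are therefore not independent of that choice.

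**Figure D2:**
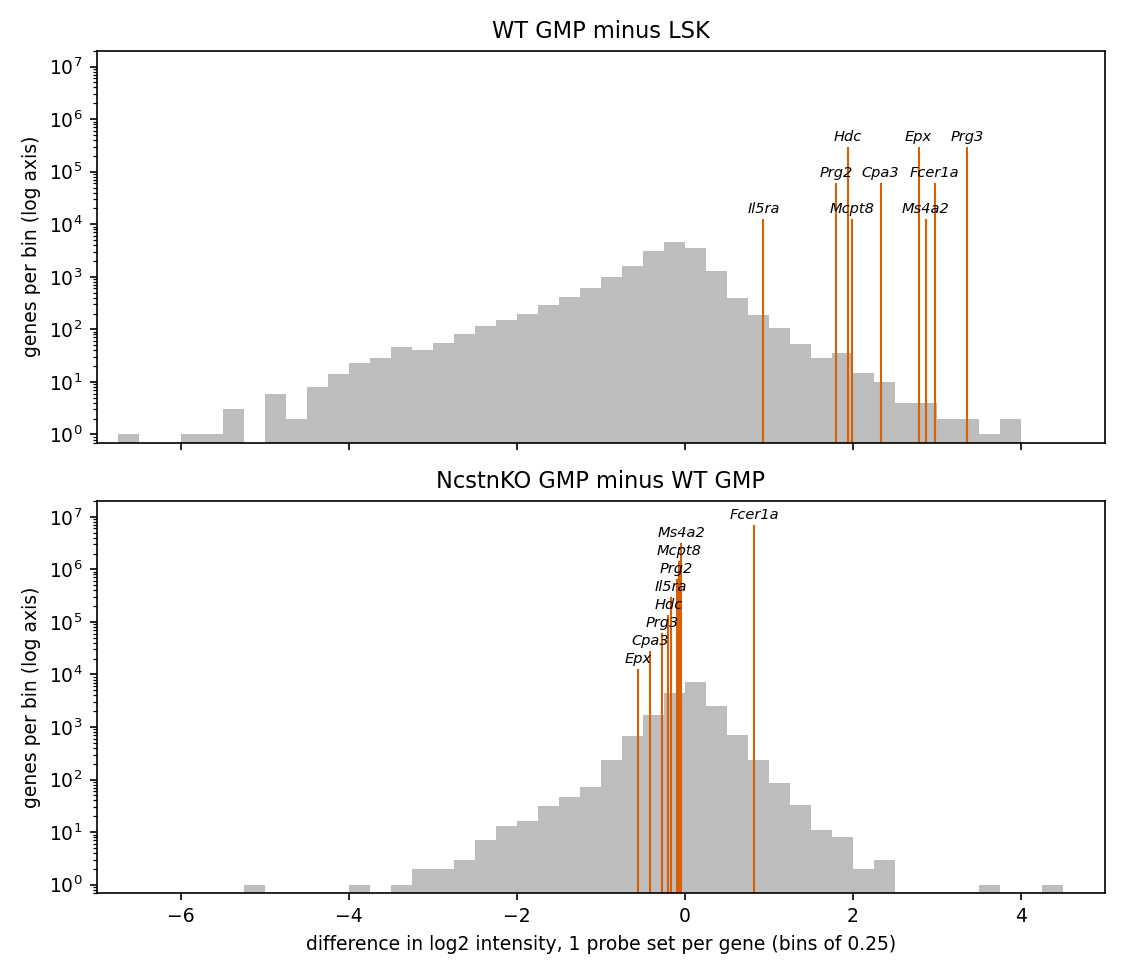
Where the 9 genes lie among all genes. Grey bars count the 18193 genes by difference in log2 intensity (horizontal axis, bins of 0.25; the vertical axis is logarithmic), and orange lines mark the 9 genes, their heights serving only to separate the names. In WT GMP minus LSK the lines lie in the right tail, from 0.94 to 3.36, and in NcstnKO minus WT GMP they lie from −0.56 (Epx) to 0.83 (Fcer1a), on both sides of 0.

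NcstnKO GMP were compared with the same LSK arrays, so the 2 comparisons with LSK are not independent. Again all 9 genes were called higher, in a comparison in which 13.8% of genes were called higher and 31.4% lower, and no gene's groups overlapped, beside 19.2% of genes not overlapping in that direction. The median difference was 1.92 (log2), beside −0.12 over all genes. Fcer1a came first, at 3.80 (14.0-fold, limma adjusted p = 0.000272), rank 4 of all genes. It was followed by Prg3 at 3.08 (8.47-fold, rank 11), Ms4a2 at 2.83 (7.09-fold, rank 15) and Epx at 2.22 (4.66-fold, rank 55). The smaller differences were those of Mcpt8 (1.92), Cpa3 (1.91), Hdc (1.74), Prg2 (1.71) and Il5ra (0.76), with limma adjusted p-values from 0.000129 for Prg2 to 0.00615 for Il5ra.

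NcstnKO and WT GMP differ in nicastrin and Cre, and largely in sex, so a difference between them cannot be assigned to nicastrin alone. None of the 9 genes passed the limma test, and none had an unadjusted p under 0.05. Over all genes, 2.31% were called, 0.846% higher and 1.46% lower in NcstnKO GMP, so few calls would fall among 9 genes at that share. The estimate was negative for 8 of the 9, with a median of −0.17 (log2) beside 0.06 over all genes. Epx had the largest negative difference, −0.56 (95% confidence interval −1.14 to 0.02, limma adjusted p = 0.267), and was the only gene whose brightest probe set did not overlap between genotypes, by 0.12, where 31.9% of all genes did not overlap in either direction. The dimmer Hdc probe set, at −0.35 (limma adjusted p = 0.462), did not overlap either. Fcer1a had the only positive difference, 0.83 (−0.16 to 1.81, limma adjusted p = 0.333), with the highest WT GMP array at 10.22 and the lowest NcstnKO array at 10.05. By size, 98.4% of genes had a lower difference than Fcer1a, and 4.49% a lower one than Epx.

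For the other genes the intervals set what these arrays could resolve. Prg2 differed by −0.10 (−0.47 to 0.28), the narrowest interval together with that of Il5ra (−0.17, from −0.55 to 0.21). Prg3 differed by −0.27 (−0.88 to 0.33) and Cpa3 by −0.42 (−1.02 to 0.18), with intervals reaching further below 0 than above it. The estimates of Ms4a2 (−0.04, from −0.71 to 0.62), Mcpt8 (−0.07, from −0.70 to 0.56) and Hdc (−0.20, from −0.71 to 0.32) were all smaller than their standard errors. With sex by transcripts as a term, the differences of Il5ra, Ms4a2, Mcpt8 and Hdc turned positive, and none was called. In that fit sex and genotype are largely confounded. A higher or lower level in NcstnKO GMP was thus not detectable with 3 arrays a group, which does not show that the levels were equal.

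**Figure D3:**
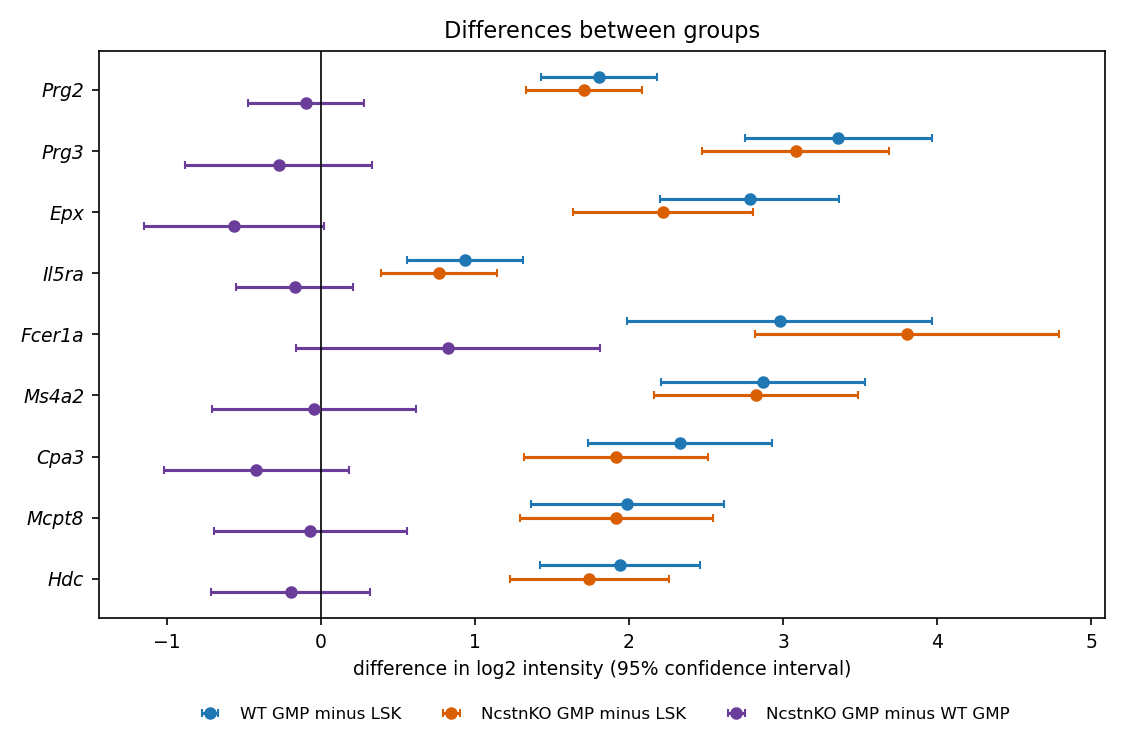
Differences between groups for the 9 genes. The horizontal axis is the difference in log2 intensity, points are estimates from the fit over all 9 arrays and bars are 95% confidence intervals. Both comparisons of GMP with LSK lie above 0 for every gene, and every interval of NcstnKO minus WT GMP contains 0.

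Fcer1a had the only positive genotype difference and Epx the largest negative one. Their ratio on each array was chosen after these values were seen, a choice that itself favours a separation of the genotypes. No test was made, and the share of all gene pairs that do not overlap was not computed. The log2 ratio of Fcer1a to Epx on the same array was −3.26, −3.55 and −2.83 in WT GMP and −1.96, −2.54 and −0.97 in NcstnKO GMP. The genotypes did not overlap in it, as they did not for Epx alone. In LSK it was −3.02, −4.06 and −3.14. The ratio of Fcer1a to Ms4a2, its partner chain, was −1.27, −1.69 and −0.99 in WT GMP and −0.71, −0.76 and 0.14 in NcstnKO GMP. Ratios without Fcer1a were computed too. That of Mcpt8 to Epx was −0.143, 0.157 and −0.027 in WT GMP and 0.568, 0.197 and 0.701 in NcstnKO GMP. The genotypes did not overlap in it either, so the separation against Epx was not particular to Fcer1a. In the ratio of Prg2 to Prg3 the genotypes overlapped. In both ratios with Fcer1a, NcstnKO GMP 3 was the highest of all 9 arrays. That array had the highest Fcer1a level of the 9 and the lowest levels of Prg2, Prg3, Epx, Mcpt8 and Hdc among the NcstnKO arrays. Without it, Fcer1a differed between genotypes by 0.57 and Epx by −0.39 (log2).

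Within LSK and WT GMP, most of the genes were highest on the same array. LSK 3 was the highest LSK array in 8 of the 9 genes, the exception being Il5ra, whereas it was highest in 33.1% of all genes. WT GMP 3 was the highest WT GMP array in 8 of 9, the exception being Hdc, beside 28.5% of all genes. NcstnKO GMP arrays showed no such order: array 1 was highest in 3 genes (Ms4a2, Cpa3 and Mcpt8), array 2 in 5 (Prg2, Prg3, Epx, Il5ra and Hdc) and array 3 in 1 (Fcer1a). Replicates of 1 group have no order, and LSK and WT GMP arrays of the same number deviated together over all genes, at 1 probe set per gene (correlations of 0.219, 0.238 and 0.291). LSK 3 also had the highest summed intensity of several marker lists: 87966 for the late neutrophil markers (9 of 10 measured; the other LSK arrays had 66665 and 71422), 51201 for the GMP markers (42317 and 47862), 46019 for the erythroid markers (37606 and 39638) and 15022 for the lymphoid markers (10438 and 10866). It was not the highest for the mast cell or megakaryocyte markers, and was the lowest for the LSK markers (16628, beside 21157 and 18450). The part of these cell types in the LSK levels was not tested. Without LSK 3, the difference of WT GMP from LSK was larger for 8 genes (Prg3 3.63, Epx 3.06, Fcer1a 3.39, Ms4a2 3.24) and 0.91 for Il5ra, and all 9 stayed called.

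**Figure D4:**
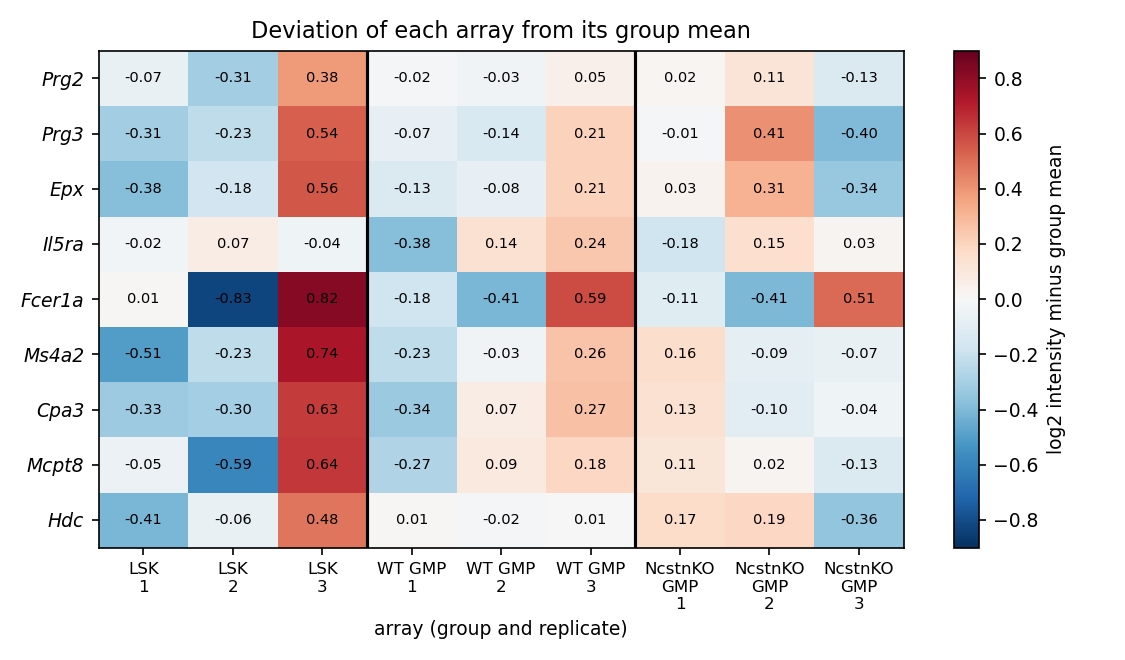
Deviation of each array from its group mean, in log2 intensity, for the 9 genes (rows) and 9 arrays (columns). Red is above and blue below the mean of that group's 3 arrays. LSK 3 is red in 8 rows and WT GMP 3 in 9, with Hdc close to 0 there, and in NcstnKO GMP 3 Fcer1a (0.51) stands against Prg3 (−0.40), Epx (−0.34) and Hdc (−0.36).

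Other cell types were read through marker lists with the 9 genes left out. Of the mast cell markers, 6 of 7 were measured, and Mcpt4, Tpsab1 and Mrgprb1 were at background in all 3 groups. The summed intensity of the 6, which include Kit, was 3015 to 3562 in LSK, 2536 to 2609 in WT GMP and 1972 to 2538 in NcstnKO GMP, and most of it was Kit. The other 5 summed to 118 to 252, 359 to 447 and 415 to 539 in the same order, of which Cma1, a mast cell chymase called higher in WT GMP than in LSK, made up 30.1 to 125, 284 to 333 and 346 to 428. The basophil markers Cd200r3 and Il4 summed to 81.6 to 114 in LSK, 106 to 204 in WT GMP and 139 to 194 in NcstnKO GMP. They went opposite ways in WT GMP against LSK. Cd200r3 was called higher (1.40 on the log2 scale, limma adjusted p = 0.0167) and Il4 lower (−0.92, limma adjusted p = 0.00153). Of the eosinophil markers, Ccr3 was at background in all groups. Siglecf and Ccr3 together summed to 355 to 419 in LSK, 1227 to 1638 in WT GMP and 1010 to 1425 in NcstnKO GMP. Of the late neutrophil markers 8 of 9 were called lower in WT GMP (summed intensity 33003 to 43500) than in LSK (66665 to 87966), and the sum was 46659 to 52906 in NcstnKO GMP. Against WT GMP, all 9 had a positive difference in NcstnKO GMP (median 0.41 on the log2 scale), and 0 were called. Erythroid markers, 11 of 12 measured with Hba-a1 at background in every group, ran from 37606 to 46019 in LSK, 17269 to 30804 in WT GMP and 7434 to 11793 in NcstnKO GMP, where 5 of 11 were called lower than in WT GMP, and 0 with label or transcript sex as a term (median −1.53, and −1.72 or −1.59 with those terms). Lymphoid markers, 7 of 8 measured with Cd3g at background in GMP, summed to 10438 to 15022 in LSK, 2178 to 3280 in WT GMP and 642 to 5764 in NcstnKO GMP, where none was called against WT GMP and the median difference was −0.82 (log2). Megakaryocyte markers (7 of 8) summed to 6204 to 9647, 3803 to 6126 and 3310 to 4664 in LSK, WT GMP and NcstnKO GMP, and monocyte and dendritic cell markers (9 of 10) to 9799 to 11719, 8271 to 11013 and 7870 to 10173. In NcstnKO against WT GMP, 1 of 7 megakaryocyte markers (median −0.29) and 2 of 9 monocyte and dendritic cell markers (median −0.70) were called lower. With label or transcript sex as a term, 0 of either list were called. The log2 ratio of 3′ to 5′ Actb probe sets, a measure of RNA integrity, was 0.577 ± 0.111 (SD, n = 3) in WT GMP and 0.899 ± 0.140 in NcstnKO GMP (p = 0.1 in an exact permutation test, 2-sided, where no smaller p can be had with 3 arrays a group). The part of these shifts in the genotype differences above was not tested.

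The first 250 bases upstream of the annotated start were available from RefSeq (assembly GRCm38.p6) for 9 of the 10 genes, all but Prg2. GATA-1 and GATA-2 are regulators of eosinophil, basophil and mast cell genes, so the windows were searched on both strands for AGATAA and for its variants with T as the first letter (TGATAA), with G as the last letter (AGATAG) or with both (TGATAG). A match was found in 7 of 9 windows, 77.8%, beside 26.5% of the 32851 windows of this length in the table. A match of 6 letters is a description of the sequence and not a binding site. The windows of the gene that rose most in WT GMP (Prg3), the α and β chains of FcεRI and Cpa3 are printed 5′ to 3′, ending at the base before the start. Matches are in capitals. Beside them is the window of Mcpt8, which rose with them and has no match.
Prg3 (chr2:84987965-84988214, plus strand): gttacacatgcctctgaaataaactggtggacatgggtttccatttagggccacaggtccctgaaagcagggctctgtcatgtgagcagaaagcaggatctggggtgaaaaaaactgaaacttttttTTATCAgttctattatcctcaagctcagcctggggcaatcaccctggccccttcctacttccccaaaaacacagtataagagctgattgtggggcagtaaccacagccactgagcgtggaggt
Fcer1a (chr1:173227230-173227479, minus strand): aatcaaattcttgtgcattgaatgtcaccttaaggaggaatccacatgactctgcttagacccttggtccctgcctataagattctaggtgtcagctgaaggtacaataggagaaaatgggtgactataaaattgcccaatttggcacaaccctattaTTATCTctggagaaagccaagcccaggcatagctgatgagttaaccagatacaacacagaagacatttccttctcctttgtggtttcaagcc
Ms4a2 (chr19:11623720-11623969, minus strand): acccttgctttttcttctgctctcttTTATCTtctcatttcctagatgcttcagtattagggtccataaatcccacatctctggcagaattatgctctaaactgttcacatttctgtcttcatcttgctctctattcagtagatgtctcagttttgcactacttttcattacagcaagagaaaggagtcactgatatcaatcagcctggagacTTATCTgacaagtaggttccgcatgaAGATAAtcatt
Cpa3 (chr3:20242182-20242431, minus strand): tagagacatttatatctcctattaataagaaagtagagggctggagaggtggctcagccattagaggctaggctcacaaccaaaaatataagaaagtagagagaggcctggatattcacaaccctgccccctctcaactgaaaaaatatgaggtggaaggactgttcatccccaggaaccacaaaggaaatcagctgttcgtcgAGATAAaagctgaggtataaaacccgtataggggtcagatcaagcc
Mcpt8 (chr14:56085198-56085447, minus strand): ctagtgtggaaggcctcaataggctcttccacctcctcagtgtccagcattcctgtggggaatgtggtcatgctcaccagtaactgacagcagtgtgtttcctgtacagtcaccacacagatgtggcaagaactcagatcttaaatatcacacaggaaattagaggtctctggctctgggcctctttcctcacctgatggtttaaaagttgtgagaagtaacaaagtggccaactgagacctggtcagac

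The Ms4a2 window held 3 matches, a number of at least 2 being found in 6.40% of all windows, and the 2 nearest to the start began at positions −37 and −11, counted from the start. The match in Cpa3 began at −46, that in Fcer1a at −92 and that in Prg3 at −123. Il5ra, Hdc and Prss34 had 1 match each. Epx and Mcpt8, which rose 6.89-fold and 3.97-fold in WT GMP, had none of these letters in this window.

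None of Gata1, Gata2 and Gata3 was called higher in WT GMP than in LSK, on the deposited scale or either rescaling. Among 21 measured of 22 listed transcription factors of these lineages, 6 were higher and 5 lower in WT GMP, with a median of −0.12 (log2). After quantile normalization the calls were 6 and 2, and under centring on the 75th percentile 6 and 1. The smallest p-values were those of Gata3, which fell by 1.99, Cebpa, a granulocyte factor, which rose by 0.75, Lmo4, which rose by 1.57, and Spi1, the myeloid factor PU.1, which rose by 0.76. Gata2, required for basophils and mast cells, differed by 0.11 (0.10 and 0.46 under the rescalings) and was not called, and Gata1, required for eosinophils, fell by 0.74 (SE 0.236, limma adjusted p = 0.0399), a call lost under both rescalings (−0.58 and −0.39). Both were named for the motif, not by their p. Between genotypes none of the 21 was called, 8 had an unadjusted p under 0.05, and the median was −0.14. Stat5b, which signals from the interleukin-5 receptor, differed by −0.50 (limma adjusted p = 0.0688), Id1 by 0.93 (0.0965), Zfpm1, the GATA partner FOG-1, by −1.15 (0.102) and Gata3 by −0.47 (0.118). Gata2 stood at −0.50 and Gata1 at −0.57, neither called.

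Further eosinophil genes followed the 9 in part. Of 6 measured of 10 listed, 2 rose in WT GMP, none fell, and the median was 0.05 (log2). Siglecf, an inhibitory lectin of mouse eosinophils, rose by 1.92 (SE 0.165, limma adjusted p = 0.000125) and Ccr1, a chemokine receptor, by 1.32 (SE 0.256, limma adjusted p = 0.00499). Ccr3, the eotaxin receptor, was at background in all groups, and Csf2rb2, a β chain of the mouse interleukin-3 receptor, differed by −0.29 without passing. Between genotypes none of the 6 was called, and 2 had an unadjusted p under 0.05. Those were Ccr1 at 0.77 (limma adjusted p = 0.147) and Alox15, a lipoxygenase, at −0.78 (0.213).

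Mast cell and basophil genes outside the 9 did not share 1 direction. Of 25 measured of 30 listed, 7 were higher and 5 lower in WT GMP, 7 were at background in both groups, which include Il13 (called higher) and Rgs13 (called lower), and the median was −0.09 (log2). Calls were 7 higher and 2 lower after quantile normalization and 11 and 2 under centring on the 75th percentile. Il6 was at background in LSK and rose at least 10.9-fold (fitted difference 3.79, limma adjusted p = 3.65e-05). Gzmb, the serine protease granzyme B, rose by 3.64 (SE 0.345) and Ms4a3, a gene of myeloid progenitors, by 1.38 (SE 0.116). Ltc4s, leukotriene C4 synthase, fell by 1.95 (SE 0.101). Cma1, a mast cell chymase, is named after its value was seen: it rose by 2.10 (SE 0.455, limma adjusted p = 0.00835) while Mcpt1, Mcpt2 and Mcpt4 stayed at background. Between genotypes none of the 25 was called, with 5 at an unadjusted p under 0.05, among them Ltc4s at 0.44 (limma adjusted p = 0.064), Il4 at 0.51 (0.0938), Ndst2, a heparan sulfate sulfotransferase, at −0.29 (0.158) and Gzmb at −0.92 (0.188).

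On the deposited scale, genes that act upstream and downstream of the receptors mostly did not rise with them. Of 9 measured of 11 listed cytokine receptors, none was called higher and 3 fell in WT GMP: Il7r by 2.84, Il4ra by 0.93 and Kit, the stem cell factor receptor, by 0.49. Quantile normalization gave 2 higher and 2 lower and centring 3 and 1. The calls of Il4ra (under both) and of Kit (under centring) were lost. Il3ra, the α chain of the receptor for interleukin-3, a growth factor of basophils, differed by 0.74 (limma adjusted p = 0.0514) in WT GMP, was called higher under both rescalings (1.12 and 1.09), and rose by 1.28 in NcstnKO GMP, both against LSK. Of 13 measured of 14 listed genes of FcεRI signalling, 1 rose and 5 fell in WT GMP, with a median of −0.21. These calls were 2 and 5 after quantile normalization, and 4 and 3 under centring, where the median was 0.14. Lat, the adaptor of the pathway, fell by 1.66, Plcg1, a phospholipase, by 0.86, Fyn, a kinase, by 1.22, and Rabgef1, a negative regulator of FcεRI signals, by 0.54. The call of Rabgef1 was lost under centring on the 75th percentile. Fcer1g, the γ chain, differed by 0.33 and was not called, but was called higher under centring (0.68), and is named here because it completes the receptor.

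Rabgef1 was the only gene of these 5 further lists called between genotypes. It was lower by 0.78 (log2) in NcstnKO than in WT GMP (SE 0.117, limma adjusted p = 0.0328), with the groups 0.47 apart. Of 20 alternative settings, 12 lost this call. It was lost with label sex (limma adjusted p = 0.118) or transcript sex (0.128) as a term, with the replicate block over all arrays (0.0641) or within the groups (0.161), with only the groups compared (0.0806), and on leaving out LSK 1, LSK 3, WT GMP 1, WT GMP 3 or any NcstnKO GMP array (0.0531 to 0.139). The difference stayed negative in all 20, from −0.90 to −0.59. Inpp5d, the phosphatase SHIP1, differed by −0.43 (limma adjusted p = 0.0725) and Lat2, a second adaptor, by 0.64 (0.0857). Among cytokine receptors none of 9 was called or had an unadjusted p under 0.05, and Kit (−0.26) and Il3ra (0.54) had the smallest p-values.

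**Figure D5:**
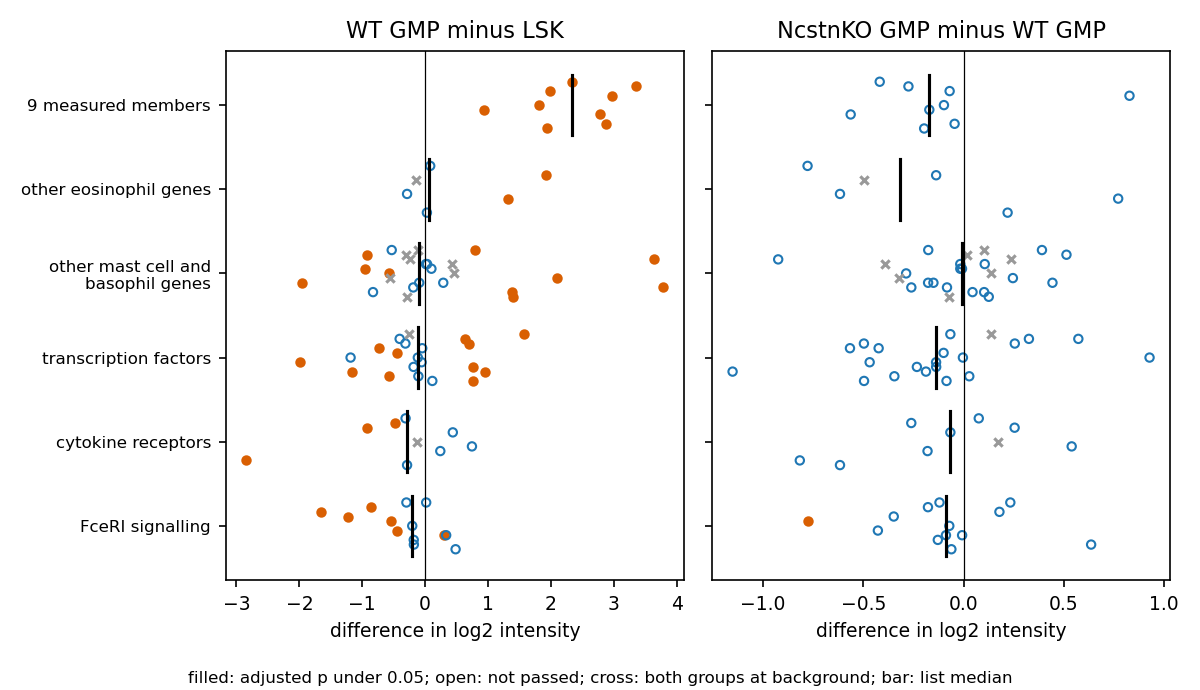
Differences in log2 intensity (horizontal axis) for the 9 genes and 5 further lists, WT GMP minus LSK at left and NcstnKO minus WT GMP at right, on different scales. Points are genes, filled where called, open where not and crosses where both groups were at background, and black bars are list medians. At left the 9 genes have a median of 2.33 and the other lists from −0.29 to 0.05, and at right 1 point, Rabgef1, is filled.

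The genes whose pattern was most like that of the 9 were named by correlation over the 9 arrays among 3605 other genes with an SD of at least 0.5, a description dominated by the split between LSK and GMP. The mean profile of Prg2, Prg3 and Epx was most like those of Mmp19, a matrix metalloproteinase (r = 0.987), Elane, neutrophil elastase (0.986), Arsb, the lysosomal arylsulfatase B (0.985), Hk3, a hexokinase (0.985), and Dtx4 (0.984). They were higher in WT GMP than in LSK by 1.10 (Arsb) to 2.72 (Mmp19). The mean profile of Fcer1a, Ms4a2, Cpa3, Mcpt8 and Hdc was most like those of Ube2w, a ubiquitin-conjugating enzyme (0.990), Ap3s1, a subunit of the adaptor AP-3 (0.987), Rab44, a large Rab GTPase (0.987), Csrp3 (0.986) and Sowahc (0.986). Their rise to WT GMP was 1.05 (Ube2w) to 2.42 (Csrp3). The 2 sets of nearest genes shared no member.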

How the data were processed

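RNA of 9 samples, 5 ng each, was amplified and biotin-labelled for 1-colour Affymetrix mouse arrays, per the labels' protocols. The authors deposited linear intensity values per probe set, made with RMA (background subtraction, quantile normalization, probe summary) per the submitters' processing notes. Whether the 9 arrays were normalized together is not given in the sources used here. The medians of LSK and GMP arrays differ, so the deposited values of the 9 arrays do not share 1 distribution. Of 45101 probe sets, 64 are controls, 34945 have 1 gene symbol, 932 several and 9160 none in GEO's platform annotation.

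Log2 of the intensity, with no pseudocount or filter, was fitted with limma 3.58.1 in R 4.3.3 (lmFit, eBayes, 2-sided) on 3 group means over 9 arrays, with 6 residual degrees of freedom. P-values were adjusted by Benjamini-Hochberg over 45037 probe sets and called under 0.05. Every adjusted p in the text is limma's. Precision is limited by the number of arrays. The fit was also run on simulated data with independent noise and changes planted in WT GMP only. Those data held no confounding by sex, shared deviations or unequal array medians, so the run does not bear on these features. A group was at background where its mean lay at or below the limit from the unspiked controls, and a fold against it is a bound.

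The 10 genes and the lists were chosen with earlier results of these data known. From each list, up to 4 genes with the smallest p in the comparison are named, and exceptions are stated. Deviations of LSK and WT GMP arrays of the same number correlated at 0.219, 0.238 and 0.291. A block by these numbers, a pairing read from the data and not the labels, was therefore fitted among the alternatives. The main fit, which gave the standard errors and p-values in the text, holds no such term. Those of NcstnKO arrays did not correlate with their number in either group. Scaling, offset, filter, gene summary, sex, replicate block and each array left out were the 20 alternatives.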

Additional observations from a re-analysis of the deposited data

How the results depend on the processing

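Under all 20 alternatives, 9 of 9 measured genes were called higher in each comparison of GMP with LSK and 0 of 9 between genotypes. The replicate block, over all arrays or within the groups compared, changed no call of the 9. For NcstnKO against WT GMP, 174 of the values for the 9 genes kept their sign and 6 reversed, none of them called: with transcript sex as a term, Il5ra stood at 0.0317, Ms4a2 at 0.321, Mcpt8 at 0.0918 and Hdc at 0.00451, and without WT GMP 3, Ms4a2 and Mcpt8 turned positive. With 1 array left out, Ms4a2 ran from −0.158 to 0.0848 and Mcpt8 from −0.205 to 0.0227. Fcer1a ranged from 0.57 to 1.12 (limma adjusted p from 0.0762 to 0.586) and Epx from −0.74 to −0.31 (0.150 to 0.659).

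Counts over all probe sets depended more on the setting. Between genotypes, 790 probe sets were called, beside 1295 with an offset of 16, 498 after quantile normalization, 1367 without the dimmest 40%, 2 with only the groups compared, 1 with label sex, 4 with transcript sex, 9 with the replicate block over all arrays and 0 with the replicate block within the groups, and from 1 to 285 with 1 array left out. Its split was 272 higher and 518 lower as deposited, and 371 and 419 under centring on the 75th percentile. For WT GMP against LSK, 15710 were called, beside 6910 with 1 probe set per gene, 7456 with gene means and 9379 without the dimmest 40%. The replicate block gave 15102 or 14982, and leaving out 1 array 11916 to 15937. For NcstnKO GMP against LSK, 19575 were called, beside 8523 and 8547 by gene, with fewer features tested. The split was 5128 higher and 14447 lower as deposited, 11429 and 8359 after quantile normalization, and 16932 and 7597 under centring. The cause of the other changes was not tested. Signal over background limits Il5ra, whose LSK level lay near it.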
